A study of Homo sapiens with 12 samples.

Results

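The genes described here are the AIM2 inflammasome and the proteins around it: the sensors AIM2 and NLRP1, the adaptor PYCARD, the caspases CASP1 and CASP4, the caspase recruitment domain protein CARD16, the pore formers GSDMD and GSDME, and the cytokine IL18. They were listed by gene symbol, and 9 of 9 were found among 55243 rows of the expression table that have a symbol of their own. RNA sequencing of the whole table covered 12 libraries of HT1080, a human fibrosarcoma line that carries an activating NRAS mutation. The siNC libraries received a control siRNA and the siQ61K libraries an siRNA directed at the mutant NRAS. Each siRNA was combined with either the solvent DMSO or poly(dA:dT), a synthetic DNA duplex, which gives 4 groups of 3 libraries. All groups are cells of the same line given an siRNA, the knockdown rests on 1 siRNA sequence, and the titles name no control for the delivery of the DNA. No label says that replicates came from separate cultures, so a p-value weighs a difference only against the scatter of these libraries. That scatter may be technical.

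AIM2 binds double-stranded DNA in the cytosol and recruits the adaptor ASC, the product of PYCARD, which in turn clusters and activates caspase-1. Caspase-1 cleaves gasdermin D, whose free N-terminal part forms pores in the plasma membrane, and matures the cytokines interleukin-1 beta and interleukin-18. Caspase-4 reaches gasdermin D without an inflammasome after binding bacterial lipopolysaccharide, and gasdermin E is opened by caspase-3. The assembly is best known from macrophages and other myeloid cells, and its activity is set by protein assembly and cleavage, which RNA levels do not measure.

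Values are length-corrected transcript shares (TPM), which keep no sequencing depth, so the depth is unknown and no counting interval was given. The 12 libraries correlated with their group partners at 0.966 to 0.984. NRAS, the targeted gene, was at 41.4 to 60.6 TPM in the 6 siNC libraries. In the siQ61K libraries it was at 15.5, 15.2 and 19.9 TPM with DMSO and at 20.1, 20.3 and 23.5 TPM with poly(dA:dT). The ratio of mean TPM, siQ61K over siNC, was 0.313 with DMSO and 0.454 with poly(dA:dT). The knockdown was thus weaker with poly(dA:dT) in these values, though the interaction described below was not called for NRAS (limma adjusted p = 0.137). All 12 mesenchymal markers of the checked list had a mean of at least 1 TPM, with a summed level of 5754 to 9228 TPM. Of 10 myeloid markers 2 reached that mean, CSF1R and FCER1G, and the list summed to 2.59 to 7.40 TPM. PTPRC, CD14, SPI1 and TYROBP, all on that list, were listed at 0 in most libraries. Across 14299 genes the fold changes of every comparison ran with the GC content of the transcripts (Spearman across genes from -0.656 to 0.505, genes not being independent replicates). Each member's result was therefore also computed after a correction for GC content and length, and is given where the call changed.

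In control cells the gasdermins and CASP4 had the highest levels, and the adaptor PYCARD was at or near 0. Under siNC with DMSO, GSDME led with a mean of 56.8 TPM, followed by CASP4 at 37.9 TPM and GSDMD at 28.7 TPM, and the library values of these neighbours did not overlap. AIM2 at 12.5 TPM and NLRP1 at 11.7 TPM had overlapping libraries. CASP1 followed at 5.40 TPM, CARD16 and IL18 were near 1 TPM or lower with overlapping libraries, and PYCARD was last. The order changed little between groups: GSDME was first in all 4, while AIM2 moved from the fourth place under siNC to the sixth under siQ61K with DMSO. CASP1 moved from the sixth to the fourth place under siQ61K with poly(dA:dT). Of the 9 members, 7 passed the filter of at least 1 TPM in at least 3 of 12 libraries and were tested, and PYCARD and IL18 were not.

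**Figure D1:**
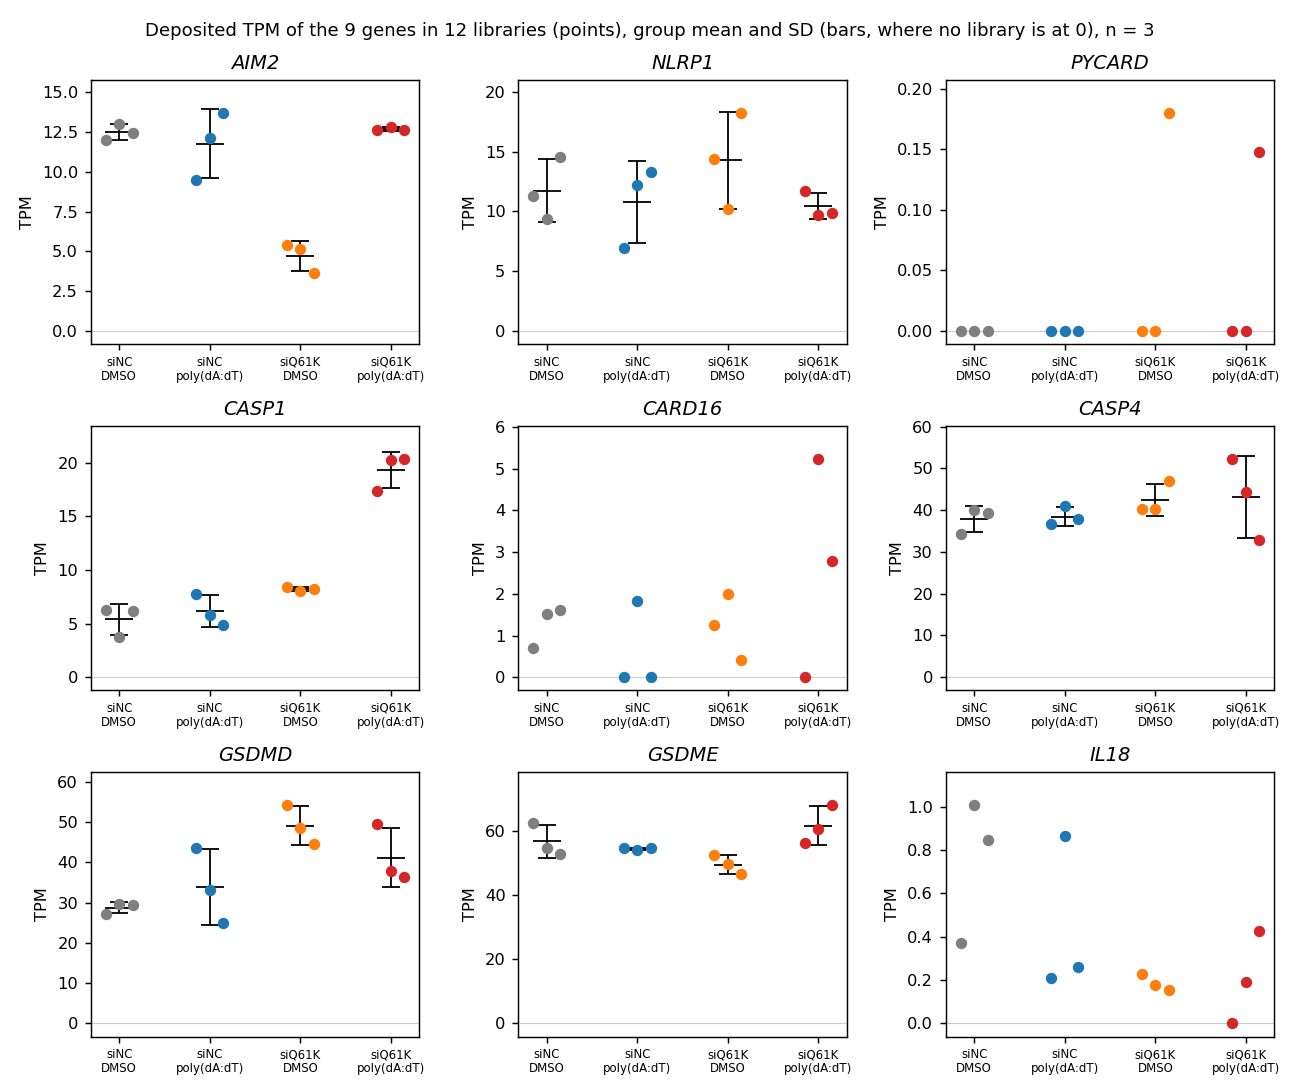
Level of each of the 9 members in TPM (vertical axes, linear, each panel with its own range) in the 4 groups; points are libraries, and bars are the group mean and SD (n = 3), drawn only where no library is at 0. The 3 AIM2 points of siQ61K with DMSO lie between 3.61 and 5.39 TPM, under all other AIM2 points, and the 3 CASP1 points of siQ61K with poly(dA:dT) lie between 17.3 and 20.4 TPM, above all other CASP1 points.

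Knockdown was tested as siQ61K against siNC, once with DMSO and once with poly(dA:dT), and the response to poly(dA:dT) was tested under each siRNA. The difference of the responses, the interaction, asks whether poly(dA:dT) changed a gene by a different amount under siQ61K than under siNC. Tests were run with limma on log2(TPM + 1) for 14722 genes, and a gene was called at a Benjamini-Hochberg adjusted p below 0.05. Fold changes are on that scale, which understates the change of low genes. An exact permutation test of 3 against 3 libraries cannot give a two-sided p below 0.1. The comparisons share groups, so their fold changes are not independent of one another.

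AIM2, the DNA sensor, fell on NRAS knockdown in DMSO and was not below control when poly(dA:dT) was present. Its promoter in the RefSeq annotation of GRCh38.p14 lies at chr1:159076717-159077016 on the minus strand. It is shown beside that of CASP4, which was called in no comparison, with 250 bases before and 50 bases after the start of transcription.
AIM2: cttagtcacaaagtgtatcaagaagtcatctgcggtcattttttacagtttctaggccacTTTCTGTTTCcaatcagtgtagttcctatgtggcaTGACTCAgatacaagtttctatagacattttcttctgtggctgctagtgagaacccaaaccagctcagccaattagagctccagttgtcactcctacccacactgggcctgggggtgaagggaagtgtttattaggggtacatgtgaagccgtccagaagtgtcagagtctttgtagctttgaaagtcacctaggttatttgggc
CASP4: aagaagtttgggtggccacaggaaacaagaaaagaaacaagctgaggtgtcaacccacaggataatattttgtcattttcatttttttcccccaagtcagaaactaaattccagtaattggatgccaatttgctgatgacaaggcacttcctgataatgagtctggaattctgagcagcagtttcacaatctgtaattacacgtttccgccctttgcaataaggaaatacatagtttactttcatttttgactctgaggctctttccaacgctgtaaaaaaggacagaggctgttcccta
The CASP4 promoter lies at chr11:104968525-104968824 on the minus strand. Capitals mark matches, on either strand, to GAAA, 2 bases of any kind and GAAA again, the core of the interferon-stimulated response element, and to TGANTCA, the AP-1 element; TTCNNNGAA, the gamma-activated site, was also searched. The AIM2 promoter holds TTTCTGTTTC at bases 61 to 70 and TGACTCA at bases 96 to 102, and the CASP4 promoter holds none of the motifs. None was found either for PYCARD and GSDME, or for NLRP3 and IFI16, which were called in comparisons given below. The GBP1 promoter holds the interferon-stimulated response element core and that of IL1B the gamma-activated site. AIM2, GBP1 and IL1B, which hold a match, were each called in some comparison, while NLRP3 and IFI16 were called without a match. PYCARD was not tested, and the promoters from outside the members all belong to called genes. These few promoters therefore cannot show whether motifs go with calls. Of 35116 promoters of this length 3.57% hold the first, 7.71% the AP-1 element and 7.66% the gamma-activated site, and a match is a description of letters and not a binding site. A promoter entry was kept for 4 of the 9 members. Entries of a skipped chromosome were not kept, so more members may have an entry.

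Under siNC with DMSO, AIM2 stood at 11.999, 13.019 and 12.464 TPM. Under siQ61K with DMSO it stood at 5.39, 5.12 and 3.61 TPM. These groups did not overlap, and the 3 siQ61K libraries were below all 6 siNC libraries. The log2 fold change was -1.26 (SE 0.17, 95% interval -1.61 to -0.90, limma adjusted p = 0.000194), and the ratio of mean TPM was 0.377. In bulk RNA, fewer cells that express a gene and less RNA per cell cannot be told apart.

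With poly(dA:dT), AIM2 stood at 9.47, 12.1 and 13.7 TPM in siNC cells and at 12.7, 12.8 and 12.6 TPM in siQ61K cells. The siQ61K values lay inside the range of the siNC values, and the fold change was 0.12 on the log2 scale (95% interval -0.24 to 0.47, limma adjusted p = 0.661). Under siQ61K, poly(dA:dT) thus went with a rise of AIM2 by 1.28 (SE 0.17, 95% interval 0.92 to 1.64, adjusted p = 0.000806 by limma), or 2.70-fold in mean TPM. Under siNC the change was -0.09 (95% interval -0.45 to 0.27, limma adjusted p = 0.828). The responses differed by 1.37 (SE 0.23, 95% interval 0.86 to 1.88, adjusted p = 0.00737 for limma's interaction term). After the correction for GC content and length the difference was 0.97 with a limma adjusted p of 0.0486. AIM2 transcripts have a GC content of 41.7%, and only 1.5% of their 31-base words occur in another gene.

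NLRP1, a sensor that undergoes its own proteolysis and can recruit caspase-1, was called in none of the 5 comparisons. Under siNC it stood at 11.3, 9.39 and 14.5 TPM with DMSO and at 6.92, 12.2 and 13.3 TPM with poly(dA:dT). Under siQ61K it stood at 14.4, 10.2 and 18.3 TPM with DMSO and at 11.7, 9.71 and 9.89 TPM with poly(dA:dT). All 4 groups overlapped. The fold change of knockdown in DMSO was 0.25 (95% interval -0.29 to 0.78, limma adjusted p = 0.481), an interval that includes changes of the size seen for CASP1 in the same comparison.

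PYCARD, the adaptor that joins AIM2 to caspase-1, was listed at 0 in 10 of 12 libraries. The exceptions were 0.180 TPM in replicate 3 of siQ61K with DMSO and 0.148 TPM in replicate 3 of siQ61K with poly(dA:dT). No fold was computed, and the values show no level above 0.2 TPM in any library. In GENCODE 29, 56.3% of the 31-base words of PYCARD also occur in its antisense gene PYCARD-AS1, which overlaps its exons over 991 bases, and the labels do not state strand. Without strand, reads over that shared sequence cannot be told apart, and the split between the genes is uncertain there.

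CASP1, the effector protease of the inflammasome, was highest where NRAS knockdown and poly(dA:dT) were combined. Under siNC with DMSO it stood at 6.30, 3.75 and 6.16 TPM. Under siNC with poly(dA:dT) it stood at 7.78, 5.84 and 4.87 TPM. The siNC groups overlapped, with a fold change of 0.17 (limma adjusted p = 0.728). Under siQ61K it stood at 8.45, 7.996 and 8.24 TPM with DMSO and at 17.3, 20.2 and 20.4 TPM with poly(dA:dT). The lowest library of the combined group was above the highest library of every other group.

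With poly(dA:dT), knockdown libraries were higher in CASP1 by 1.52 on the log2 scale (SE 0.20, 95% interval 1.10 to 1.94, limma adjusted p = 0.000155), a 3.13-fold ratio of mean TPM. Under siQ61K, the libraries with poly(dA:dT) were higher by 1.13 (SE 0.20, 95% interval 0.71 to 1.56, adjusted p = 0.00416 by limma), a 2.35-fold ratio. That call was lost (1.10, adjusted p = 0.0641) when replicate 3 of siQ61K with DMSO and replicate 2 of siQ61K with poly(dA:dT) were left out together. The knockdown in DMSO was a smaller step of 0.55 (SE 0.20, 95% interval 0.13 to 0.98, limma adjusted p = 0.0457), with no overlap between the groups. The call for knockdown in DMSO was kept in 8 of 23 alternatives. It was lost without replicate 2 of siNC with DMSO (0.35, limma adjusted p = 0.198) and without any 1 of the 3 siQ61K DMSO libraries. Leaving out replicate 2 of siNC with poly(dA:dT), or replicate 2 or 3 of siQ61K with poly(dA:dT), lost it too. So did median-ratio scaling (limma adjusted p = 0.0679), quantile scaling (0.0855), a pseudocount of 5, no filter and only the groups compared. The replicate block, the fit without the pair of libraries named above and the sum with CARD16 lost it as well. After the correction for GC content and length the value was 0.85 and called (limma adjusted p = 0.00939). The interaction was 0.97 (SE 0.28, 95% interval 0.37 to 1.56, limma adjusted p = 0.0314), and 10 of 22 alternatives kept it. It was lost without any 1 of 9 libraries, the exceptions being replicate 2 of siNC with DMSO and replicate 1 of both poly(dA:dT) groups, and it fell to 0.59 (limma adjusted p = 0.280) after the correction for GC content and length.

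**Figure D2:**
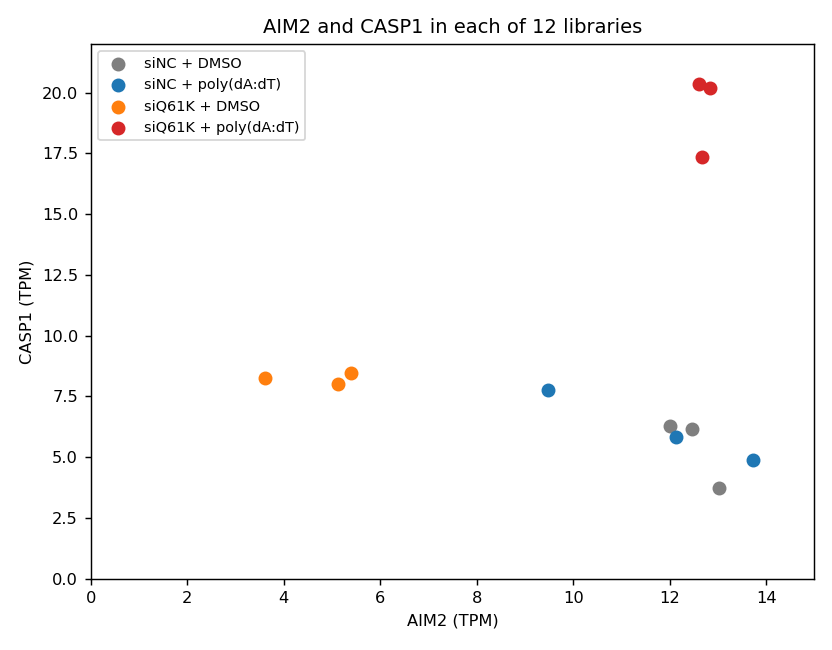
Level of AIM2 (horizontal axis, TPM) against CASP1 (vertical axis, TPM) in each of the 12 libraries, coloured by group. The siQ61K libraries with DMSO lie at low AIM2 (3.61 to 5.39 TPM), and the siQ61K libraries with poly(dA:dT) lie at AIM2 values inside the siNC range with CASP1 at 17.3 to 20.4 TPM.

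CARD16, which consists of little more than a caspase recruitment domain like that of caspase-1, was low and scattered. It stood at 0.702, 1.51 and 1.62 TPM under siNC with DMSO and at 0, 1.83 and 0 TPM under siNC with poly(dA:dT). Under siQ61K it stood at 1.26, 1.99 and 0.418 TPM with DMSO and at 0, 5.23 and 2.79 TPM with poly(dA:dT). The groups overlapped in all comparisons and none was called. The fold change was 1.02 (SE 0.59, limma adjusted p = 0.240) for knockdown with poly(dA:dT), and it was called at 1.78 (adjusted p = 0.0163) when replicate 1 of siQ61K with poly(dA:dT), listed at 0, was left out. The interaction of CARD16 was 1.09 (limma adjusted p = 0.381), and without the same library 1.86 (adjusted p = 0.0490).

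CARD16 and CASP1 share transcript sequence, so their reads can be split between them in the quantification. Of 1705 words of 31 bases in CARD16, 303 also occur in CASP1, which is 17.8% of CARD16 and 7.66% of CASP1. The summed level of both genes was 7.01, 5.26 and 7.77 TPM under siNC with DMSO, and 17.3, 25.4 and 23.1 TPM in siQ61K cells given poly(dA:dT). The sum thus separated these groups as CASP1 alone did, while the knockdown in DMSO lost its call for the sum, with 0.46 and a limma adjusted p of 0.102.

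CASP4, the lipopolysaccharide-binding caspase, was called in no comparison. It stood at 34.3, 40.0 and 39.3 TPM under siNC with DMSO, and at 36.6, 41.0 and 37.8 TPM under siNC with poly(dA:dT). Under siQ61K it stood at 40.2, 40.2 and 46.9 TPM with DMSO and at 52.3, 44.4 and 32.9 TPM with poly(dA:dT). Fold changes of its 5 comparisons ran from -0.02 to 0.16, with limma adjusted p from 0.451 to 0.989. The DMSO groups of siNC and siQ61K did not overlap, with an exact two-sided permutation p of 0.1. After the correction for GC content and length the value for knockdown in DMSO was 0.47 (limma adjusted p = 0.0749) and the interaction -0.35 (adjusted p = 0.480), neither of them called. CASP5, which binds lipopolysaccharide too, was listed at 0 in all libraries.

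GSDMD, the pore former downstream of caspase-1 and caspase-4, was higher after knockdown in DMSO. Under siNC with DMSO it stood at 27.1, 29.6 and 29.4 TPM, and under siQ61K with DMSO at 54.2, 48.4 and 44.5 TPM. The groups did not overlap, and the fold change was 0.75 (SE 0.18, 95% interval 0.36 to 1.14, limma adjusted p = 0.00715), a 1.71-fold ratio. With poly(dA:dT) it stood at 43.6, 33.2 and 24.9 TPM in siNC cells and at 49.4, 37.8 and 36.2 TPM in siQ61K cells. Those groups overlapped, and the fold change was 0.29 (limma adjusted p = 0.266). GSDMD has the highest GC content of the members, 64.9%. After the correction for GC content and length the fold change in DMSO was 0.21 (limma adjusted p = 0.234) and the one with poly(dA:dT) 0.58 (adjusted p = 0.00491), so that the call moved from one setting to the other. The difference between the settings was not called with or without the correction (limma adjusted p = 0.227 and 0.267).

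GSDME, the gasdermin cut by caspase-3, was the most abundant member and was called in no comparison. It stood at 62.7, 54.9 and 52.9 TPM under siNC with DMSO and at 54.7, 54.2 and 54.9 TPM under siNC with poly(dA:dT). Under siQ61K it stood at 52.5, 49.7 and 46.5 TPM with DMSO and at 56.3, 60.6 and 68.2 TPM with poly(dA:dT). The siQ61K groups did not overlap, and the response to poly(dA:dT) there was 0.31 (SE 0.11, limma adjusted p = 0.0517). It was called in 6 of 22 alternatives, among them the correction for GC content and length (0.44, adjusted p = 0.0487) and the fits without replicate 1 of siNC with DMSO (adjusted p = 0.0496) or without replicate 1 of siQ61K with poly(dA:dT) (adjusted p = 0.0250).

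IL18, a cytokine matured by caspase-1, was under the filter. It stood at 0.370, 1.01 and 0.848 TPM under siNC with DMSO and at 0.227, 0.177 and 0.157 TPM in siQ61K cells with DMSO. These groups did not overlap, with an exact two-sided permutation p of 0.1, the smallest that 3 against 3 allows. With poly(dA:dT) it stood at 0.210, 0.864 and 0.258 TPM in siNC cells and at 0, 0.190 and 0.425 TPM in siQ61K cells, which overlap. At these levels no direction was called.

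Counted over the 7 tested members, knockdown in DMSO gave 2 called higher (CASP1 and GSDMD) and 1 called lower (AIM2). Over all 14722 genes 16.6% were called higher and 14.8% lower in that comparison, and the median fold change was 0.16 for the members and 0.01 for all genes. Knockdown with poly(dA:dT) gave 1 member higher (CASP1) and 0 lower, beside 8.71% of all genes higher and 12.6% lower. The medians were 0.17 and -0.07. Of the genes called there, 40.8% were higher, and 51.3% after scaling by median ratios.

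The siNC response to poly(dA:dT) gave 0 members in limma, and 0 at an unadjusted p under 0.05, beside 0.0747% of all genes higher and 0.0475% lower. Poly(dA:dT) under siQ61K gave 2 members higher (AIM2 and CASP1) and 0 lower, beside 6.92% of all genes higher and 18.3% lower. The medians were 0.31 for the members and -0.15 for all genes, and median-ratio scaling moved the latter to -0.01 and the share of called genes that were higher from 27.5% to 52.6%. The interaction gave the same 2 members higher and 0 lower, beside 6% of all genes higher and 12.1% lower, with medians of 0.36 and -0.06. Of the genes called for the interaction 33.2% were higher, and 47.5% after that scaling. The correction for GC content and length turned the balance of calls, to 61.8% higher for poly(dA:dT) under siQ61K (773 higher and 477 lower) and to 67.7% higher for the interaction (201 and 96). Without replicate 3 of siQ61K with DMSO and replicate 2 of siQ61K with poly(dA:dT), 69.4% of the genes called for poly(dA:dT) under siQ61K were higher (100 and 44), and 41.3% of those called for the interaction (204 and 290).

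**Figure D3:**
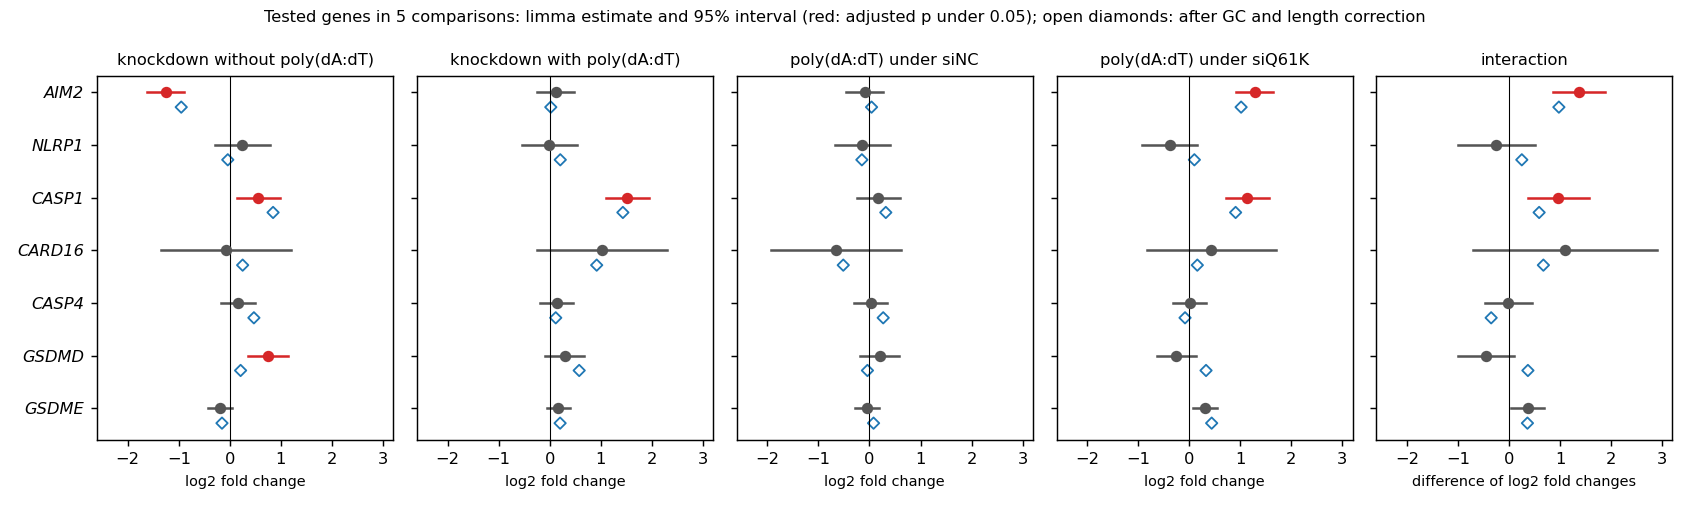
Log2 fold change on the log2(TPM + 1) scale with 95% intervals from limma for the 7 tested members in the 5 comparisons. AIM2 lies at -1.26 for knockdown in DMSO and at 1.28 for poly(dA:dT) under siQ61K, CASP1 lies at 1.52 for knockdown with poly(dA:dT), and the intervals of all members include 0 for poly(dA:dT) under siNC.

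The wider pathway list held 66 other genes in the table, of which 34 passed the filter. Under siNC, poly(dA:dT) called 0 of the 34 in limma and 2 had an unadjusted p under 0.05, beside 0.0747% of all genes called higher and 0.0475% lower. Knockdown in DMSO called 1 higher and 7 lower (median -0.08), beside 16.6% of all genes higher and 14.8% lower. Knockdown with poly(dA:dT) called 6 higher and 6 lower (median 0.14), beside 8.71% and 12.6%. With poly(dA:dT) under siQ61K the test called 4 higher and 4 lower (median 0.06), beside 6.92% of all genes higher and 18.3% lower. The interaction called 3 higher and 1 lower (median 0.17), beside 6% and 12.1%. After the correction for GC content and length, knockdown in DMSO called 4 higher (TRIM16, GBP1, GBP3 and RIPK1) and 5 lower (IL1A, IL1B, NLRP3, MLKL and DPP9). Knockdown with poly(dA:dT) then called 9 higher and 6 lower. Over all 14299 corrected genes, 1879 were called higher and 2072 lower for knockdown in DMSO. For knockdown with poly(dA:dT) they were 1967 higher and 1904 lower. The corrected response to poly(dA:dT) gave 1 higher and 0 lower under siNC (IFI16) and 4 higher and 0 lower under siQ61K. The corrected interaction gave 3 higher and 0 lower. Over all 14299 genes the corrected calls were 19 higher and 10 lower under siNC and 773 and 477 under siQ61K. For the interaction they were 201 and 96. MNDA and CARD17 were listed at 0 in every library.

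Among sensors, NLRP3 fell on knockdown in both settings and IFI16 rose with poly(dA:dT) under siQ61K. NLRP3, the sensor of membrane damage and ion flux, stood at 8.79, 7.13 and 10.05 TPM under siNC with DMSO and at 4.11, 3.12 and 3.06 TPM in siQ61K cells with DMSO, a fold change of -1.12 (limma adjusted p = 0.00243). With poly(dA:dT) the knockdown gave -0.97 for NLRP3 (limma adjusted p = 0.00773). IFI16, a DNA sensor of the same family as AIM2, stood at 94.1, 95.7 and 107 TPM in siQ61K cells with DMSO and at 277, 282 and 274 TPM in siQ61K cells given poly(dA:dT). Its rise was 1.48 (limma adjusted p = 7.18e-07) and its interaction 1.18 (adjusted p = 0.000733). AIM2 and IFI16 overlap in no exon of the annotation. The knockdown in DMSO changed IFI16 by -0.26 (limma adjusted p = 0.0472), against -1.26 for AIM2. After the correction for GC content and length that value was 0.05 for IFI16 (limma adjusted p = 0.647), so that its call was lost and its sign turned. Under siNC the corrected response of IFI16 to poly(dA:dT) was 0.53 and called (limma adjusted p = 0.0174), and the corrected interaction was 0.84 (adjusted p = 0.00296).

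Of 11 tested regulators, 4 were higher and 1 lower for knockdown with poly(dA:dT), beside 8.71% of all genes higher and 12.6% lower. GBP1 and GBP3, interferon-inducible guanylate-binding proteins of 1 multigene family whose members can share reads, were the leading ones. GBP1 stood at 7.995, 7.902 and 9.17 TPM under siNC with poly(dA:dT) and at 36.2, 41.8 and 34.0 TPM in siQ61K cells given poly(dA:dT), a rise of 2.03 (limma adjusted p = 5.32e-06). GBP3 rose by 1.37 in the same comparison (limma adjusted p = 2.96e-05), from 12.1, 12.5 and 14.4 TPM to 33.9, 33.8 and 38.1 TPM. The interactions were 1.61 for GBP1 (limma adjusted p = 0.00486) and 1.22 for GBP3 (adjusted p = 0.00692). TRIM16, a ubiquitin ligase, rose by 1.12 on knockdown in DMSO (limma adjusted p = 0.000279), and DPP9, a protease that restrains NLRP1, fell by 0.90 with poly(dA:dT) under siQ61K (adjusted p = 0.00832). The DPP9 call was lost after the correction for GC content and length (-0.34, limma adjusted p = 0.182).

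The interleukin-1 cytokines, of which IL1B encodes a substrate of caspase-1, fell on knockdown in both settings. IL1B stood at 264, 287 and 290 TPM under siNC with DMSO and at 39.6, 43.1 and 46.3 TPM in siQ61K cells with DMSO. The fold change was -2.68 in DMSO (limma adjusted p = 9.09e-08) and -2.65 with poly(dA:dT) (adjusted p = 7.15e-08). IL1A fell by 1.84 in DMSO (limma adjusted p = 5.00e-05) and fell by 1.55 with poly(dA:dT) (adjusted p = 0.000157). No cytokine or receptor of the 7 tested was called for poly(dA:dT) under either siRNA. Of all genes, 0.0747% were called higher and 0.0475% lower under siNC, and 6.92% higher and 18.3% lower under siQ61K. NINJ1, which ruptures the plasma membrane late in lytic death, had an interaction of -0.86 (limma adjusted p = 0.0227), a call lost after leaving out any 1 of 7 libraries: replicates 1 and 2 of both siNC groups, replicate 1 of siQ61K with DMSO, and replicates 2 and 3 of siQ61K with poly(dA:dT). After the correction NINJ1 had an interaction of -0.41 (limma adjusted p = 0.167).

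**Figure D4:**
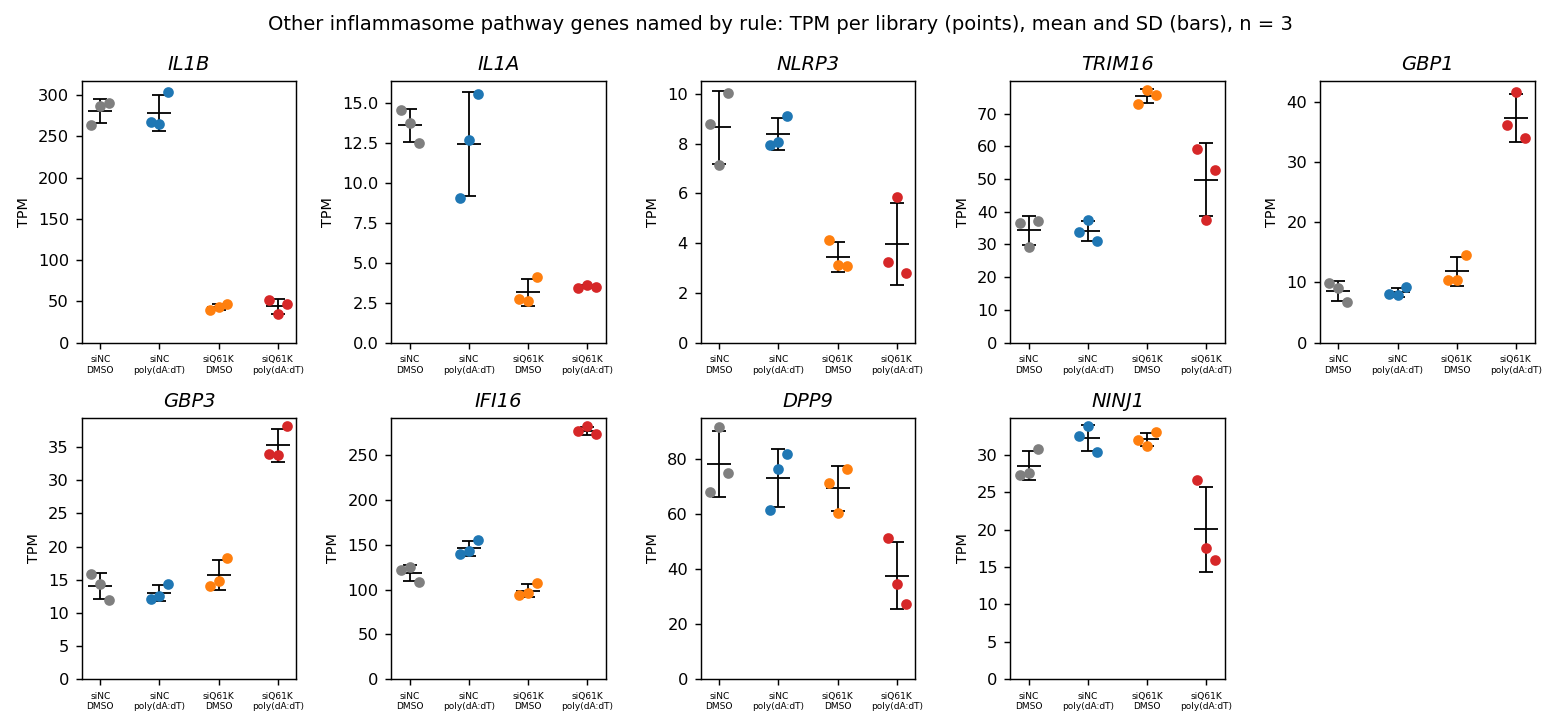
Level in TPM (vertical axes, linear, each panel with its own range) of wider pathway genes in the 4 groups; points are libraries, and bars are the group mean and SD (n = 3). IFI16, GBP1 and GBP3 are highest in the 3 libraries of siQ61K with poly(dA:dT), while IL1B is at 34.1 to 51.5 TPM in all 6 siQ61K libraries and at 264 to 304 TPM in the siNC libraries.

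The genes most like AIM2 and CASP1 were sought by Pearson correlation of log2(TPM + 1) over the 12 libraries among 10093 genes with a mean of at least 5 TPM. The points share libraries and groups, so these values describe likeness and carry no p. AIM2 was most like RMI2 (0.938), ENY2 (0.932) and HAUS1 (0.930), whose group means were likewise lowest under siQ61K with DMSO. After the correction for GC content and length these correlations were 0.896, 0.888 and 0.797. ENY2 had means of 105 TPM under siNC with DMSO, 59.3 TPM in siQ61K cells with DMSO and 96.8 TPM in siQ61K cells given poly(dA:dT). CASP1 was most like HLA-B (0.952), IFI35 (0.948) and IFI27 (0.942), of which HLA-B, a member of a family with near-identical copies and so of uncertain counting, presents peptides to T cells, and IFI35 and IFI27 are named for their induction by interferon. IFI27 had a mean of 12.9 TPM under siNC with DMSO and 414 TPM in siQ61K cells given poly(dA:dT). The corrected correlations with CASP1 were 0.926 for HLA-B, 0.935 for IFI35 and 0.930 for IFI27.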

How the data were processed

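Total RNA of 12 HT1080 libraries was sequenced on an Illumina instrument, per the labels' protocols. The authors deposited 1 table of TPM per gene, estimated with Salmon 0.8.0, per the submitters' processing notes, which name hg19. The annotation, and how transcripts were summed per gene, was not given in the sources used here. A TPM value depends on all other transcripts of a library and keeps no read depth. Columns were matched to titles by siRNA, added agent and replicate number; NC was read as siNC, SI as the only other siRNA and PD as the only added agent. The members and lists were chosen with earlier results of these data known.

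Genes reaching 1 TPM in 3 or more of the 12 libraries were fitted on log2(TPM + 1) with limma 3.58.1 in R 4.3.3, with the 4 group means in 1 fit, a trend of the variance, and p-values adjusted by Benjamini-Hochberg over 14722 genes (threshold 0.05). The fit was tested on simulated data. Rows sharing a symbol (984) were left out. All members were named. Of the wider list, up to 4 called genes per comparison with the largest fold and a highest group mean of 1 TPM or more were named. They also had to show no overlap between the groups compared, a rule that was not applied to the interaction. Likeness was computed for tested members whose group means differ by at least 1 on the log2 scale; that of CARD16 is not reported here. GC content and length came from GENCODE 29 and were known for 97.1% of tested genes; the correction was a lowess curve per library. Promoters came from RefSeq. The alternatives were the pseudocount, the filter, the scaling, no variance trend, this correction, only the groups compared, a replicate block, each library left out, replicate 3 of siQ61K with DMSO and replicate 2 of siQ61K with poly(dA:dT) left out together and, chosen after seeing the data, CASP1 and CARD16 summed.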

Additional observations from a re-analysis of the deposited data

Results flagged for a closer look

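Under siQ61K the response to poly(dA:dT) was not that under siNC for AIM2, CASP1 and 4 genes of the wider list, by limma's interaction term on the log2 scale. The difference, siQ61K minus siNC, was 1.37 for AIM2 and 0.97 for CASP1. It was 1.18 for IFI16, 1.61 for GBP1 and 1.22 for GBP3, and it was -0.86 for NINJ1. AIM2, IFI16, GBP1 and GBP3 were called in all of their alternatives, whereas CASP1 was called in 10 of 22 and NINJ1 in 11 of 21. No group had more than 3 libraries, so single libraries were not tested for standing apart.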

How the results depend on the processing

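Each alternative changed 1 choice, and the cause of a change was not tested. AIM2 kept its calls for knockdown in DMSO (22 of 22 alternatives, -1.41 to -0.85), for poly(dA:dT) under siQ61K (22 of 22, 0.87 to 1.47) and for the interaction (21 of 21, 0.94 to 1.53). CASP1 kept its call for knockdown with poly(dA:dT) in 23 of 23 (1.13 to 1.68) and for poly(dA:dT) under siQ61K in 22 of 23, the exception being the fit without both replicate 3 of siQ61K with DMSO and replicate 2 of siQ61K with poly(dA:dT), a pair taken from earlier results of these data (1.10, adjusted p = 0.0641). Depth is unknown for TPM, so no limit of detection could be given for PYCARD, IL18 or CARD16.

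The number of members called for knockdown with poly(dA:dT) went from 1 to 2 after the correction for GC content and length, and from 1 to 2 with single libraries left out. For poly(dA:dT) under siQ61K it went from 2 to 1 without both libraries. For the interaction it went from 2 to 1 with no filter, after the correction and without both libraries, and ran from 1 to 3 with single libraries left out.

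Reversals concerned members that were not called. In knockdown in DMSO the correction gave -0.0398 for NLRP1 and 0.25 for CARD16, and leaving out both libraries gave 0.22 for CARD16. In knockdown with poly(dA:dT) NLRP1 was 0.0013 with a pseudocount of 0.1, 0.0699 with median-ratio scaling, 0.0861 with quantile scaling, 0.21 after the correction and 0.0416 without both libraries. For poly(dA:dT) under siNC the correction gave 0.0402 for AIM2, -0.04 for GSDMD and 0.0795 for GSDME, and median-ratio scaling gave 0.013 for GSDME. For poly(dA:dT) under siQ61K the correction gave 0.10 for NLRP1, -0.084 for CASP4 and 0.33 for GSDMD, and leaving out both libraries gave -0.42 for CARD16. For the interaction the correction gave 0.25 for NLRP1 and 0.37 for GSDMD, and CASP4 was 0.0756 with median-ratio scaling, 0.0671 with quantile scaling and 0.0205 without both libraries.

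With single libraries left out, knockdown in DMSO ran from -0.32 to 0.22 for CARD16. Knockdown with poly(dA:dT) ran from -0.0215 to 0.22 for AIM2, from -0.27 to 0.16 for NLRP1 and from -0.0069 to 0.32 for CASP4. Poly(dA:dT) under siNC ran from -0.20 to 0.0445 for AIM2, -0.30 to 0.13 for NLRP1, -0.0331 to 0.30 for CASP1, -0.0428 to 0.0636 for CASP4 and -0.10 to 0.0174 for GSDME. Poly(dA:dT) under siQ61K ran from -0.13 to 1.19 for CARD16 and -0.14 to 0.18 for CASP4, and the interaction of CASP4 from -0.17 to 0.16.

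Counts over all genes moved as well. Knockdown in DMSO called 4632 genes, and 3040 without replicate 1 of siNC with DMSO. Poly(dA:dT) under siNC called 18, between 7 and 36 with single libraries left out, and 29 after the correction. Its response under siQ61K called 3712, and 2328 with no filter, 1250 after the correction, 2207 with only the groups compared, 144 without both libraries and as few as 1633 without replicate 3 of siQ61K with poly(dA:dT). The interaction called 2662, and 1026 with no filter, 297 after the correction, 494 without both libraries and as few as 976 without replicate 1 of siNC with DMSO.

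Replicate numbers did not pair the libraries: deviations of same-numbered libraries correlated at -0.26 to 0.233, over 0.1 in 3 of 18 pairs, and 4 of 12 libraries correlated best with one of their own number. With a replicate block the members called for knockdown in DMSO went from 3 to 2, CASP1 having an adjusted p of 0.0566, and the counts in the other comparisons stayed at 1, 0, 2 and 2.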
